A study of Mus musculus with 8 samples.

Results

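The genes described here are 9 transcripts that are used as markers of mesenchymal and stromal progenitor cells: Kitl, Fgf7, Pdgfra, Fgfr1, Prrx1, Col3a1, Cd34, Vcam1 and Cav1. They are 9 of the 754 genes measured, and they were chosen by name with their difference between the media already known, so their levels are given as a description and without a test. The cells measured were CD8 T cells from spleens of C57BL/6 mice, enriched with a negative selection kit and kept for 48 hours in 200 µl of conditioned medium with 2 µg/ml of stimulating CD3 and CD28 antibodies. The medium had been collected after 48 hours from B16F10 cells, a mouse melanoma line, that were wild type for SSBP4 (4 samples, called wild-type medium) or carried a knockout of it (4 samples, called knockout medium). All 8 cultures shared the stimulation and the tissue and strain of the T cells, and the knockout was in the melanoma cells only, as labelled. The sources do not say whether the knockout line was 1 clone, nor whether the samples came from separate mice or batches of medium, so a batch of medium cannot be told apart from the knockout, and p-values measure only how far these samples vary, and that variation may be technical.

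RNA was measured on the nCounter Myeloid Innate Immunity panel, which counts colour-coded probes bound to each transcript without amplification. Levels are the deposited normalized signals, and the background threshold, set 2 SD above the mean of the 8 negative control probes over all samples, was 22.08. Dividing each sample's gene signals by 1 factor gave whole counts, which totalled 259954 to 346676 in wild-type medium and 188174 to 320804 in knockout medium. The control probes are unscaled counts, while gene signals carry these factors, 0.792 to 1.328. The threshold and the fold bounds that use it are therefore approximate. Across tested genes the samples' deviations from their group means went together for samples 1 and 2 of both media, and likewise for samples 3 and 4 (correlations between media of 0.197 to 0.465). Between these pairs they ran opposite (-0.452 to -0.211), which centring on the group means brings about once the others are positive. Each gene has its own probe with its own efficiency, so levels are compared between samples and not between genes. Of 15 CD8 T cell markers 5 were measured, Ptprc, Fyn, Cd247, Cd27 and Cd28, and the other 10, among them Cd8a, Cd8b1 and Cd3e, were not analysed here.

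Mesenchymal progenitors are the cells of connective tissue that give rise to fibroblasts and related lineages. They respond to platelet-derived and fibroblast growth factors through the receptor kinases PDGFRA and FGFR1, lay down fibrillar collagen, and supply neighbouring cells with factors such as KIT ligand. In spleen and bone marrow, stromal cells hold lymphocytes and progenitors through VCAM1, and CD34 marks haematopoietic progenitors, vascular endothelium and several mesenchymal cells. Resting and activated T cells are not usual sources of most of these transcripts, and which cells made them in these samples was not tested.

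The data show 9 genes with clear signal in wild-type medium, 8 of which lay below background in each knockout medium sample. The exception was Cav1, which was lower there and still above background. The 9 signals summed to 10501 to 11922 in the wild-type medium samples and to 150 to 203 in the knockout medium samples, of which all but 31.9 to 45.6 was Cav1. As a share of recovered counts they made up 4.34%, 4.01%, 3.85% and 3.80% in samples 1 to 4 of wild-type medium, and 0.0601%, 0.0716%, 0.0612% and 0.0558% in those of knockout medium. In bulk RNA, fewer cells of a type and less RNA per cell cannot be told apart.

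**Figure D1:**
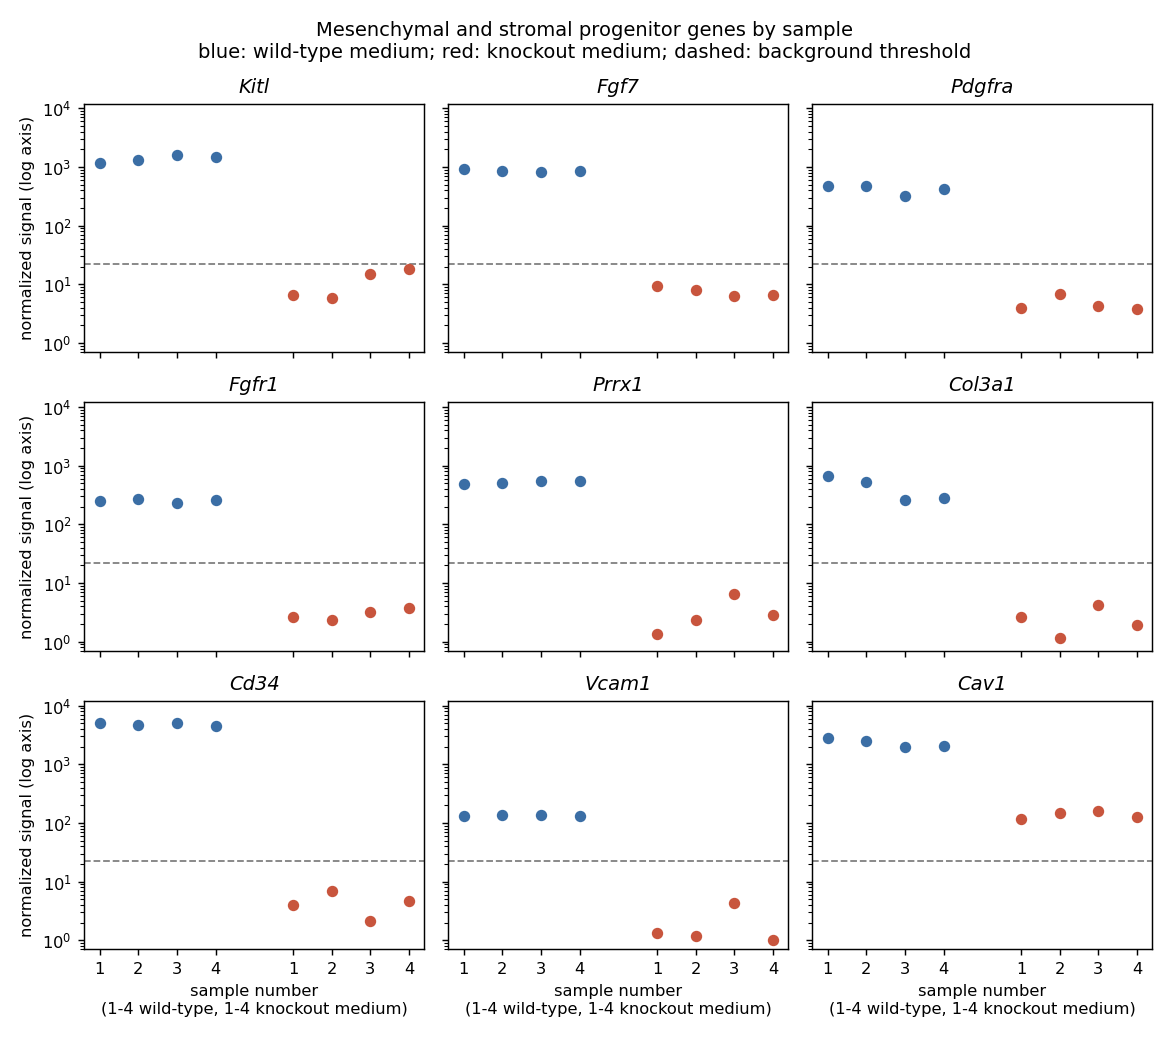
Normalized signal (log axis) of each of the 9 genes in samples 1 to 4 of wild-type medium (blue) and of knockout medium (red), 1 point per sample, with the background threshold of 22.08 as a dashed line. For 8 genes each red point lies below the line and each blue point above it, and for Cav1 all 8 points lie above it.

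The sequences around the start sites of 4 of these genes are printed because they stand for the different behaviours seen: Cd34 had at least 209-fold less signal in knockout medium, Cav1 kept signal there, and Col3a1 and Kitl ran in opposite order over the wild-type medium samples. They are RefSeq promoters of GRCm38.p6, 250 bases before to 50 after the start, written 5′ to 3′ on the strand of the gene, all 4 on the plus strand. Cd34 is at chr1:194938571-194938870, Col3a1 at chr1:45311288-45311587, Kitl at chr10:100015571-100015870, and the first of 2 listed starts of Cav1 at chr6:17306085-17306384. Capitals mark matches, on either strand, to TATAAA (the TATA box), CCAAT (the CCAAT box), GGGCGG (the GC box), TGANTCA (the AP-1 site) or CACGTG (an E-box).
Cd34: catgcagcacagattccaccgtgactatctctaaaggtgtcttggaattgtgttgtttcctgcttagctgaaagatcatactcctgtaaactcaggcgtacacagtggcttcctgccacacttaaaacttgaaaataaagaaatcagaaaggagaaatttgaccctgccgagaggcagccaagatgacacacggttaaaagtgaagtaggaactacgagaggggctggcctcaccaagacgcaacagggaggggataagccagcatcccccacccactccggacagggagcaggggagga
Col3a1: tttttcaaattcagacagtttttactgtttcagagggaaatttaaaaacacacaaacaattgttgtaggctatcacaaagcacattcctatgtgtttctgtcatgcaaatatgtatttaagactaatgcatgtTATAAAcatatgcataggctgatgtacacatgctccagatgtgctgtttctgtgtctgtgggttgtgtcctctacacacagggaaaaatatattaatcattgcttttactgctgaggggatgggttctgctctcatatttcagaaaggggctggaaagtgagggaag
Kitl: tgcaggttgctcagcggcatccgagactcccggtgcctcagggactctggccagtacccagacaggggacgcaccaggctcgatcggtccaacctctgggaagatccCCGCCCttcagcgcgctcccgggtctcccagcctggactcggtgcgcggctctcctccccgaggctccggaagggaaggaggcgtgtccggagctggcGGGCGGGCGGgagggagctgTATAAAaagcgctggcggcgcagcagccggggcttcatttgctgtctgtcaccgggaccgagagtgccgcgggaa
Cav1: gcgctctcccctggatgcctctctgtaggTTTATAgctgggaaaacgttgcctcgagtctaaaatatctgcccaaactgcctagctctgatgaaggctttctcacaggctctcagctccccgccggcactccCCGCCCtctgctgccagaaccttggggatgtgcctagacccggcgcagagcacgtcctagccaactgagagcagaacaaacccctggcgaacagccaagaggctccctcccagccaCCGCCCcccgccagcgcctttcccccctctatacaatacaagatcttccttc

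Of the 9 genes 7 matched a promoter, with 8 start sites in all, and Fgfr1 and Vcam1 had no entry. TATAAA lay from 25 to 20 bases before the start of Kitl, from 117 to 112 bases before that of Col3a1, and on the opposite strand from 221 to 216 bases before that of Cav1. It occurs in 13.6% of the 32851 promoters of this length. GGGCGG was found in Kitl, in 2 copies that overlap each other and 1 on the opposite strand, and in Cav1, in 2 copies on the opposite strand, against 35.7% of all promoters. CCAAT was found in Fgf7 alone, from 53 to 49 bases before its start, against 37.4%. TGANTCA, found in 7.81% of all promoters, and CACGTG, found in 7.15%, were in 0 of the 8. The G+C content ran from 37.7% in Col3a1, which holds 0 CpG dinucleotides, to 68.7% in Kitl, which holds 28, around medians of 52.7% and 7 CpG over all promoters. The 7 genes thus had no searched motif in common, and their base composition spread to both sides of the median.

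The secreted or membrane-bound ligands come first. Kitl, the ligand of the receptor KIT and a survival factor for progenitors, mast cells and melanocytes, had signals of 1158, 1298, 1578 and 1496 in samples 1 to 4 of wild-type medium and of 6.64, 5.79, 14.8 and 18.0 in those of knockout medium. Samples 3 and 4 were the higher ones in both media, though all knockout medium values lay below background, and the groups did not overlap. Its means were 1383 ± 190 and 11.3 ± 6.05 (SD, n = 4 each), at least 59.5-fold lower in knockout medium when values below background are raised to the threshold. In counts, its knockout medium values were 5, 5, 14 and 19, and the last of these exceeded all 8 negative controls of that sample, whose highest count was 13. It was the 1 value above its own sample's negative controls among the 32 knockout medium values of the 8 genes below background. Fgf7, keratinocyte growth factor, made by mesenchymal cells and acting on epithelium, had signals of 915, 843, 807 and 861 in wild-type medium and of 9.30, 8.10, 6.36 and 6.63 in knockout medium. Its values lay close together within wild-type medium. Those of knockout medium correspond to 7, 7, 6 and 7 counts, within the range of the negative controls. The means were 856 ± 44.8 and 7.60 ± 1.37, at least 37.1-fold lower in knockout medium.

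The receptors followed the same order of media. Pdgfra, the alpha receptor for platelet-derived growth factors, had signals of 469, 480, 323 and 420 in wild-type medium and of 3.99, 6.95, 4.24 and 3.79 in knockout medium. Sample 3 was the lowest of wild-type medium, and it was still far above each knockout medium value. The means were 423 ± 71.5 and 4.74 ± 1.48, at least 18.2-fold lower in knockout medium. Fgfr1, a receptor for fibroblast growth factors, had signals of 248, 267, 235 and 260 in wild-type medium and of 2.66, 2.32, 3.18 and 3.79 in knockout medium. The 4 samples of wild-type medium were alike. Those of knockout medium correspond to 2, 2, 3 and 4 counts, within the range of the negative controls. The means were 252 ± 14.2 and 2.99 ± 0.641, at least 11.0-fold lower in knockout medium.

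Prrx1, a homeobox transcription factor gene of limb and craniofacial mesenchyme, had signals of 485, 513, 556 and 537 in wild-type medium and of 1.33, 2.32, 6.36 and 2.84 in knockout medium. Its means were 523 ± 30.4 and 3.21 ± 2.19, at least 22.7-fold lower in knockout medium, with no overlap. Col3a1, which encodes the fibrillar collagen type III chain, had signals of 671, 533, 260 and 281 in wild-type medium and of 2.66, 1.16, 4.24 and 1.90 in knockout medium. Wild-type medium samples 1 and 2 were well above samples 3 and 4, the widest split of the 9 genes. The knockout medium values, at 2, 1, 4 and 2 counts, were too low to show an order. The means were 436 ± 200.0 and 2.49 ± 1.32, at least 17.5-fold lower in knockout medium.

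Of the surface molecules, Cd34, a sialomucin, had signals of 5069, 4737, 4960 and 4503 in wild-type medium and of 3.99, 6.95, 2.12 and 4.74 in knockout medium. All 4 wild-type medium values were within a 1.13-fold range, and the knockout medium values correspond to 3, 6, 2 and 5 counts, beside 1 to 28 counts in single negative controls of those samples. The means were 4817 ± 251 and 4.45 ± 2.00. Vcam1, an adhesion molecule of stromal and endothelial cells that binds leukocyte integrins, had signals of 131, 135, 135 and 129 in wild-type medium and of 1.33, 1.16, 4.24 and 1.00 in knockout medium, the last being the lowest value the file lists. Its means were 132 ± 2.97 and 1.93 ± 1.54, at least 5.78-fold lower in knockout medium, where the small bound follows from its modest signal in wild-type medium.

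Cav1, the main protein of caveolae, differed from the other 8 in that it kept a measurable level. It had signals of 2775, 2468, 1972 and 2016 in wild-type medium and of 118, 146, 157 and 127 in knockout medium, with 89, 126, 148 and 134 counts behind the latter. The groups did not overlap, and the lowest wild-type medium value was still far above the highest of knockout medium. The means were 2308 ± 384 and 137 ± 17.6, a 16.8-fold ratio of means, and the fitted log2 difference was -4.06 (SE 0.14). For the 8 genes below background in knockout medium the fitted value depends on the pseudocount and the fold bounds above are to be read instead, so the size of the difference is not ranked between them and Cav1.

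All 9 genes passed the filter on low values, 8 of them through the wild-type medium samples alone. All 9 were called lower in knockout medium in the limma fit over all genes, in which 24.7% of 454 tested genes were called lower. The groups did not overlap for all 9 either, against 23.8% of tested genes in that direction, and 8 of the 9 were above background in all wild-type and below it in all knockout medium samples, against 4.63% of tested genes. Because the genes were chosen for this difference, nothing is read from these counts. The median fitted log2 difference of the 9 was -6.65, and that of all tested genes 0.41. The value for the 9 depends on the pseudocount, since 8 of them lay below background in knockout medium. It was -5.78 with a pseudocount of 5 and -4.24 with one of 20.

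The spread of the 9 genes within wild-type medium is given as a description, beside the spread that counting alone would give and without a test. The coefficient of variation over the 4 samples was 2.25% for Vcam1 and 5.64% for Fgfr1, where counting error at their counts is 8.33% and 6.03%. It was 5.21% for Cd34 against 1.38% from counting, 5.23% for Fgf7 against 3.28%, and 5.82% for Prrx1 against 4.19%. In these 5 genes the highest value was 1.05 to 1.15 times the lowest. For the other 4 the coefficient was 13.7% for Kitl, 16.6% for Cav1, 16.9% for Pdgfra and 45.8% for Col3a1, against counting errors of 2.58%, 2.03%, 4.72% and 5.04%. Col3a1, Pdgfra and Cav1 were higher in samples 1 and 2 than in samples 3 and 4, by 2.58-fold, 1.49-fold and 1.41-fold from the highest to the lowest sample. For Pdgfra sample 4, at 420, lay near the mean of 423, and sample 3, at 323, was the low one. Kitl was lower in samples 1 and 2, by 1.36-fold from lowest to highest. Samples 1 and 2 also stood apart from samples 3 and 4 over all tested genes, as given above. Over the same samples Ptprc, the CD45 phosphatase of leukocytes, was 198, 222, 337 and 243, and its part in these differences was not tested. In knockout medium the coefficient of variation of Cav1 was 12.9%, beside a counting error of 9.14%.

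**Figure D2:**
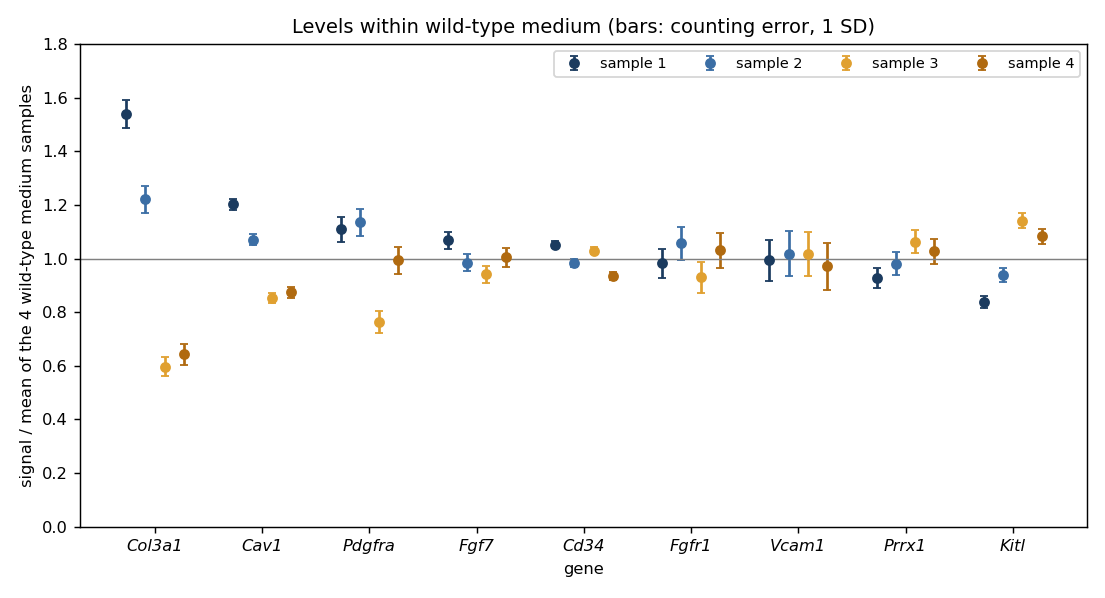
Signal of each of the 9 genes in wild-type medium samples 1 to 4, divided by the mean of the 4, with bars of 1 SD of counting error. Col3a1, Pdgfra and Cav1 lie above 1 in samples 1 and 2 and below it in samples 3 and 4, Kitl lies the other way, and Vcam1 and Fgfr1 stay within about their counting error. Pdgfra in sample 4, at 420 beside a mean of 423, is within its counting error of 1.

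Binding partners and relatives of these genes were taken from lists of growth factor, matrix, adhesion and caveola genes that hold 122 genes, of which 46 were measured and 29 tested. Of the 29, 11 fell and 13 rose in knockout medium (limma, Benjamini-Hochberg adjusted p under 0.05), against 24.7% lower and 46.9% higher over all tested genes, and their median log2 change was 0.30. After scaling to T cell genes 17 were lower and 5 higher, so the balance between the directions depends on the scaling.

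**Figure D3:**
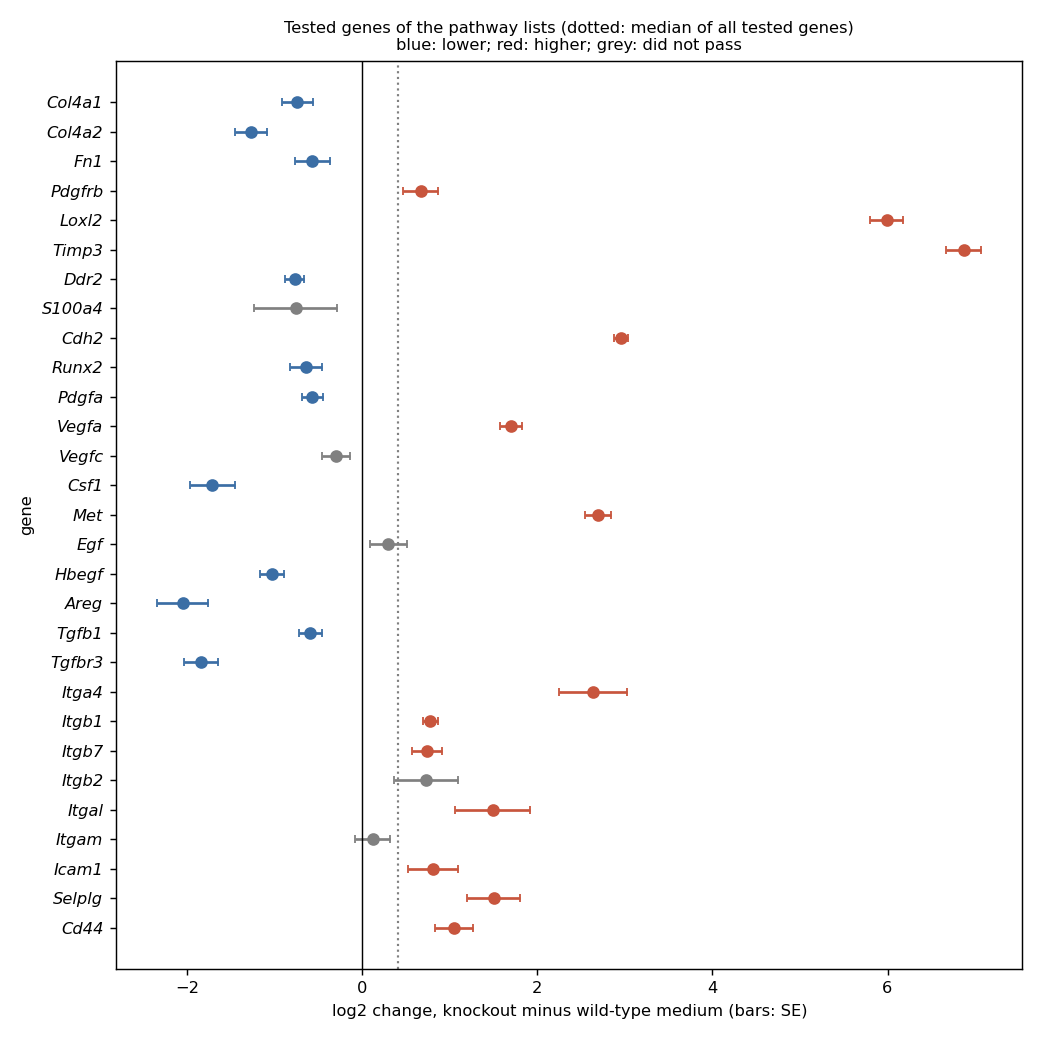
Log2 change between knockout and wild-type medium, with SE, of the 29 tested genes of the pathway lists, coloured by the limma call, and the median of all tested genes, 0.41, as a dotted line. Timp3 and Loxl2 stand at 6.87 and 5.99, and Areg, at -2.05, is the lowest.

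The fibroblast and matrix list held 11 measured genes, of which 4 fell, 3 rose and 1 did not pass among 8 tested. Over all tested genes 24.7% were lower and 46.9% higher. The basement membrane collagen gene Col4a2 had means of 75.9 ± 4.21 in wild-type and 31.4 ± 6.88 in knockout medium and fell by 1.27 on the log2 scale (SE 0.18, limma adjusted p = 2.49e-04). Ddr2, a receptor kinase that binds fibrillar collagen, stood at 1482, 1398, 1411 and 1240 in wild-type medium and at 724, 727, 927 and 883 in knockout medium, and fell by 0.77 (SE 0.11, limma adjusted p = 2.14e-04). It thus remained well above background where Col3a1 did not. Fn1, fibronectin, had means of 923 ± 169 and 628 ± 164 with overlapping groups and fell by 0.57 (SE 0.20, limma adjusted p = 0.0288). The call of Fn1 was lost with the sample number as a block (limma adjusted p = 0.05) and when either sample 1 or sample 2 of either medium was left out, at 0.0711 to 0.0793.

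In the other direction within that list, Timp3, an inhibitor of metalloproteinases held in the matrix, had wild-type medium signals of 3.96, 5.43, 5.46 and 6.38 and knockout medium signals of 899, 852, 616 and 603, at least 31.7-fold higher (limma adjusted p = 8.26e-09). Loxl2, a lysyl oxidase that cross-links collagen, was 5.54, 3.62, 3.64 and 3.19 against 337, 293, 335 and 289, at least 13.6-fold higher (limma adjusted p = 1.05e-08). Both stayed below background in wild-type medium and exceeded it in each sample of knockout medium, the reverse of the 8 genes. Col4a1, the partner chain of Col4a2, had means of 95.5 ± 10.7 and 57.7 ± 11.8 and fell by 0.74 (SE 0.18, limma adjusted p = 0.00583). S100a4, a calcium-binding protein gene of fibroblasts and many motile cells, stood at 1141, 1059, 743 and 804 in wild-type medium and at 291, 284, 1130 and 946 in knockout medium, where samples 1 and 2 were far below samples 3 and 4. It did not pass (limma adjusted p = 0.177) and passed as lower with median scaling, quantile normalization and T cell gene scaling and with sample 3 of knockout medium left out (3.40e-04 to 0.0442). The other 3 measured genes of the list were near or below background on average in both media. Col1a2, a chain of the type I collagen that fibroblasts usually make beside type III, was 18.3 ± 5.21 in wild-type and 21.0 ± 8.06 in knockout medium, Cdh11 was 3.87 ± 1.5 and 3.89 ± 1.38, and Cxcl12, a chemokine of stromal cells, was 1.02 ± 0.03 and 2.25 ± 1.26.

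Relatives of the growth factor receptors differed from them too. Pdgfrb, the beta receptor of the family of Pdgfra, stood at 21.4, 23.5, 20.9 and 23.4 in wild-type medium, around background, and at 43.8, 42.8, 33.9 and 26.5 in knockout medium. It rose by 0.67 on the log2 scale (SE 0.20, limma adjusted p = 0.015), a call that median scaling and quantile normalization ended and that turned to -0.62 after scaling to T cell genes, and that averaging samples 1 with 2 and 3 with 4 ended too (0.12). Pdgfa, a ligand of both receptors, had means of 458 ± 17.9 and 310 ± 48.5 and fell by 0.57 (SE 0.12, limma adjusted p = 0.00218), and Pdgfb was below background in all samples. Of the PDGF and VEGF list 1 fell, 2 rose and 1 did not pass among 4 tested genes (24.7% lower and 46.9% higher over all). The second that rose was Vegfa, the main angiogenic factor, from 527 ± 95.0 to 1697 ± 51.8 (limma adjusted p = 4.39e-06, and 0.169 after scaling to T cell genes). Vegfc, the lymphatic growth factor, was 109 ± 8.58 against 88.7 ± 16.9 (limma adjusted p = 0.122) and passed as lower with median scaling, quantile normalization and T cell gene scaling and with sample 3 of knockout medium left out (1.53e-05 to 0.0414). The 3 measured fibroblast growth factor relatives, Fgf2, Fgf10 and Fgf18, were below background in all 8 samples, so none was tested beside Fgf7 and Fgfr1.

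Kit, the receptor of Kitl, was also below background throughout, at 1.63 ± 0.478 in wild-type and 6.79 ± 3.48 in knockout medium. Csf1, which like KIT ligand is made by stromal cells and acts on myeloid cells, was the 1 tested gene of its list and fell from 637 ± 57.5 to 206 ± 80.9 (limma adjusted p = 3.46e-04), and its receptor gene Csf1r was below background in all samples. Of the other growth factor genes 4 of 6 tested fell and 1 rose, against 24.7% lower and 46.9% higher over all tested genes. Tgfbr3, a TGF-beta co-receptor, fell from 379 ± 102 to 102 ± 7.39 (limma adjusted p = 3.57e-05), the heparin-binding EGF family gene Hbegf fell from 160 ± 10.4 to 78.4 ± 11.9 (limma adjusted p = 1.64e-04), and Areg, another EGF family ligand gene, with 3 of 4 knockout medium values below background, was at least 3.12-fold lower (limma adjusted p = 2.19e-04). Met, the receptor of hepatocyte growth factor, rose from 409 ± 37.4 to 2679 ± 546 (limma adjusted p = 5.39e-07).

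Of the 2 tested transition factor and cadherin genes 1 rose and 1 fell. Cdh2, N-cadherin, an adhesion molecule of mesenchymal and melanoma cells, stood at 85.5, 80.5, 82.8 and 80.8 in wild-type medium and at 603, 636, 647 and 701 in knockout medium (log2 change 2.96, SE 0.08, limma adjusted p = 8.26e-09). Runx2, a transcription factor gene of bone-forming mesenchyme, had means of 84.1 ± 8.09 and 54.1 ± 11.2 (limma adjusted p = 0.00994), a call lost when each medium's samples were averaged into pairs, 1 with 2 and 3 with 4 (limma adjusted p = 0.12). Among the genes named here that averaging also ended the calls of Pdgfa (0.0639), Col4a1 (0.078), Pdgfrb (0.12), Fn1 (0.17), the macrophage gene Cd68 (0.149) and the neutrophil gene Mmp9 (0.0972). Thus Cdh2 was higher in the samples in which Prrx1 lay below background.

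The adhesion list holds the receptors that VCAM1 and its relatives bind on leukocytes, with other adhesion molecules. Of 9 tested genes 7 rose, 0 fell and 2 did not pass, against 46.9% higher and 24.7% lower over all tested genes. With samples scaled to T cell genes 1 was higher and 3 were lower. Itga4, the alpha chain of the VCAM1 receptor VLA-4, had wild-type medium signals of 18.2, 7.24, 29.1 and 22.3, around background, and knockout medium signals of 89.0, 94.9, 134 and 144, at least 4.61-fold higher (limma adjusted p = 3.08e-04), the opposite order to Vcam1. Itgb1, the beta chain of the same receptor, rose from 2422 ± 107 to 4158 ± 399 (limma adjusted p = 5.23e-05) and passed as lower by -0.56 when scaled to T cell genes. Selplg, the P-selectin ligand, rose by 1.5 on the log2 scale (limma adjusted p = 0.00177, and 0.477 under that scaling). Cd44, a hyaluronan receptor of activated lymphocytes and many other cells, rose from 23.3 ± 5.41 to 48.7 ± 7.02 (limma adjusted p = 0.00242) and stood at -0.25 under that scaling. None of the 6 listed relatives of Cav1 was analysed here.

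The tested genes outside the 9 with the most similar profile were named by a root mean square difference. It compares their log2(signal + 1) values over the 8 samples with the mean profile of the 9, each centred on its own mean. The difference was 0.39 for Ptgs2, the inducible cyclooxygenase, 0.46 for Fscn1, an actin-bundling protein gene, 0.54 for Fosl1, an AP-1 family factor gene, 1.00 for Klf4, a zinc finger factor gene, and 1.03 for Gata6, a GATA factor gene. For the 9 genes themselves it ran from 0.25 for Fgf7 to 1.69 for Cd34. Ptgs2, Fscn1 and Fosl1 thus had smaller differences than Vcam1, at 0.58, and Cav1, at 1.28. For genes below background in knockout medium the difference depends on the pseudocount and on how high the wild-type medium signal is. A gene of the same pattern with a much higher or lower signal is therefore placed further away, as Cd34 was. Ptgs2 stood at 1262, 1138, 2180 and 1740 in wild-type medium and at 18.6, 13.9, 13.8 and 13.3 in knockout medium, with samples 3 and 4 the higher ones of wild-type medium as for Kitl. Gata6 stood at 68.1, 61.5, 61.0 and 65.9 against 2.66, 1.16, 2.12 and 1.00. These genes were picked for their difference between the media, so their values are a description.

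**Figure D4:**
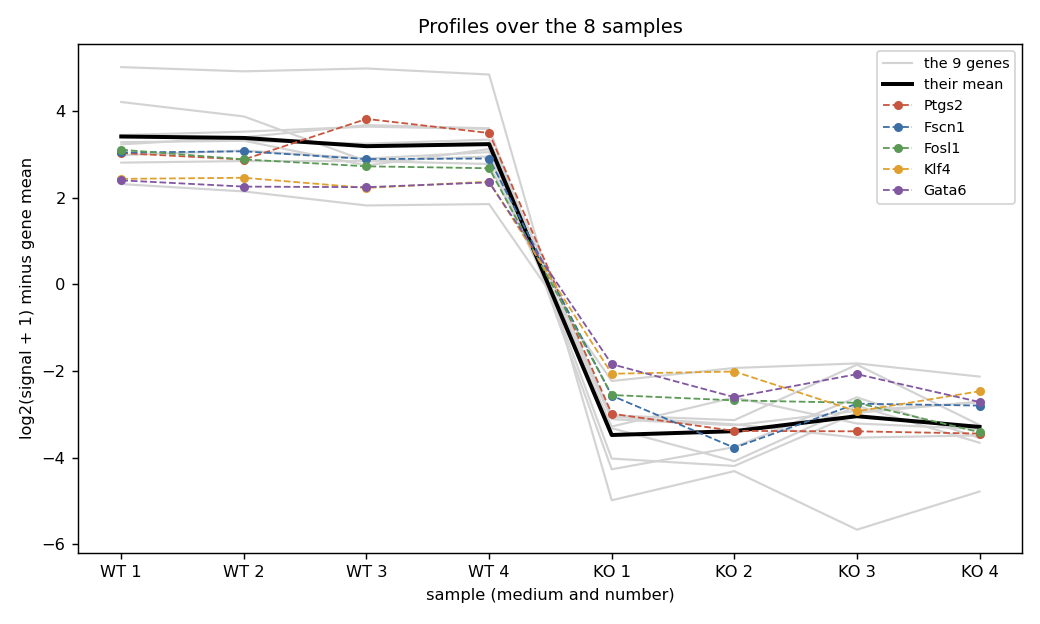
Log2(signal + 1) minus the gene's mean over the 8 samples for the 9 genes (grey), their mean (black) and the 5 closest other genes (coloured, dashed), against sample. Each line is high in wild-type medium and low in knockout medium, Cd34 spans the widest range of the 9, and Klf4 and Gata6 run flatter than the mean of the 9. For lines below background in knockout medium, such as Cd34 and Gata6, the range depends on the wild-type medium signal and the pseudocount. It is not read as the size of the change.

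Markers of cell types moved beside these genes, and their part in the differences was not tested. All 5 measured CD8 T cell markers rose in knockout medium, where 46.9% of tested genes were higher, their signals summing to 698 to 1010 in wild-type and 1509 to 2221 in knockout medium samples. Ptprc rose from 250 ± 60.7 to 660 ± 165 (limma adjusted p = 3.66e-04), Fyn, a kinase of T cell receptor signalling, from 409 ± 35.5 to 753 ± 59.0 (3.42e-05) and Cd247, the receptor zeta chain, from 79.6 ± 13.8 to 186 ± 32.1 (2.48e-04). Scaling to T cell genes, 4 of which are on this list, left Ptprc at 0.06, Cd247 at -0.12 and Fyn at -0.46 on the log2 scale by construction. Under the same scaling the 9 genes had a median log2 difference of -7.92, a value that depends on the pseudocount as well.

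Of 6 measured endothelial markers, a cell type that also expresses Cd34, Vcam1 and Cav1, Cdh5, Flt1 and Sele were below background in all samples. Tek was 17.6 ± 4.92 and 17.5 ± 6.04 and Selp 15.1 ± 3.02 and 20.9 ± 6.13, both too low to be tested, and Angpt2, an angiopoietin gene that other cells also express, rose from 23.9 ± 3.96 to 163 ± 34.0 (limma adjusted p = 3.75e-06). The 6 signals summed to 64.2 to 83.9 in wild-type and 177 to 259 in knockout medium. Of 4 measured haematopoietic progenitor markers Kit, Gata1 and Flt3 were below background in all samples, while Gata2 was 30.3 ± 5.54 and 10.1 ± 4.36 and too low on average to be tested. Their sum was 35.4 to 43.6 in wild-type and 18.9 to 37.2 in knockout medium.

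The 3 measured markers of the fibroblast list, Fn1, Pdgfrb and Col1a2, summed to 791 to 1174 in wild-type and 550 to 860 in knockout medium, with 1 lower, 1 higher and 1 not tested. Of 12 macrophage and monocyte markers 8 were below background in all samples, and their sum was 303 to 460 and 283 to 332. Among them Cd68 fell by 0.47 on the log2 scale (limma adjusted p = 0.0411), which did not hold when sample 2, 3 or 4 of wild-type medium, or 1 or 3 of knockout medium, was left out (0.063 to 0.103), while C1qa and Itgam did not pass, at 0.926 and 0.628. Of 9 neutrophil markers 8 were below background in all samples, with sums of 76.5 to 89.7 and 34.3 to 75.3, and Mmp9 fell by 0.73 (limma adjusted p = 0.0293), which did not hold when sample 1 or 2 of wild-type medium, or 4 of knockout medium, was left out (0.061 to 0.0823). The B cell gene Ms4a1 (19.9 ± 3.48 and 22.3 ± 7.86) was too low to be tested. So were the 5 measured dendritic cell markers, with sums of at most 36.6 and 42.4, and the 5 mast cell and basophil markers, with sums of 36.4 to 48.9 and 16.2 to 33.2. Of the 10 melanocyte and melanoma markers none was analysed here.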

How the data were processed

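Mouse CD8 T cell RNA was measured on the nCounter panel in 8 samples, 4 per medium. The authors deposited 1 table of normalized signal for 754 genes and 14 unscaled control probes (6 positive, 8 negative), per the labels an nCounter panel. The sources used here do not give the software or the normalization. Within a tolerance of 0.1 of a step, 99.87% to 100% of gene signals above 1 were whole multiples of 1 factor per sample, 0.792 to 1.328, and lower ones are listed as 1. Counts are these signals divided by the factor. The positive and negative control counts were left as deposited.

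Genes with a mean of at least 22.08 over the 8 samples were tested, 454 of 754. The fit was limma 3.58.1 in R 4.3.3 (lmFit, eBayes with trend, two-sided) on log2(signal + 1), knockout against wild-type medium, Benjamini-Hochberg over all tested genes, threshold 0.05. Fold changes on that scale understate the change of genes with low signal, and bounds raise values below background to the threshold. The fit was tested on simulated data. The count models listed as alternatives were not run, since a stricter check of whole steps in the deposited columns failed for some samples.

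The 9 genes and all lists were chosen with earlier results of these data known. Named genes are the 9, up to 4 tested genes per pathway list with the smallest adjusted p, the 3 most abundant per marker list, and the 5 closest profiles, 55 in all and 42 tested. The genes Col4a1, S100a4, Cdh11, Cxcl12, Pdgfb, Csf1r, Flt1, Cdh5, Sele, Cd27, Cd28 and the fibroblast growth factor relatives were named outside this rule, after their values were seen. 1 gene of the adhesion list is not reported here and was left out of that list's counts. All 9 gene names matched a current RefSeq symbol of GRCm38.p6.

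Samples carry numbers 1 to 4 in both media. Deviations from the group means correlated across tested genes, which are not independent replicates, at 0.454, 0.296, 0.465 and 0.197 for the same number, all above 0.1. No label says what a number stands for, so a pairing would come from the titles' numbering and these correlations alone. Numbers 1 and 2 of different media correlated about as strongly, at 0.396 and 0.267, as did 3 and 4, at 0.424 and 0.255, so the data separate samples 1 and 2 from 3 and 4 more than single pairs. The fit used for the reported values has no block. Alternatives were a blocked fit on that number, other pseudocounts, filters and scalings, samples averaged by number, and each sample left out.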

Additional observations from a re-analysis of the deposited data

How the results depend on the processing

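The 9 genes were chosen for their difference between the media, so nothing is read from its direction here. The fitted sizes for Cd34 and Vcam1 depend on the pseudocount. All 9 genes were lower in knockout medium in each of the 18 alternatives run, with the fitted log2 difference of Cd34 running from -11.07 to -7.63, that of Vcam1 from -6.76 to -2.80 and that of Cav1 from -5.39 to -3.88. Of the 35 other tested genes named, 17 kept their direction and their side of the threshold in each of these in which they were tested. With the sample number as a block, 115 genes were lower and 227 higher, against 112 and 213 without it, and of the listed genes 10 and 14 against 11 and 13. The block ended the call of Fn1 and changed no other call among the named genes. Leaving out each sample in turn gave 104 to 119 lower and 202 to 225 higher genes. Averaging samples 1 and 2 and samples 3 and 4 left 6 of the listed genes lower, with fewer values per medium. Scaling to T cell genes moved the median of all tested genes from 0.41 to -0.92 and gave 281 lower and 62 higher genes, of which 17 and 5 were listed ones. Under it Pdgfrb turned to -0.62, Itgb1 to -0.56, Cd44 to -0.25, Fyn to -0.46, Cd247 to -0.12, C1qa to -1.27 and Itgam to -1.18, which follows from dividing by genes that were higher in knockout medium. The median of all genes was 0.15 with median scaling, 0.12 with quantile normalization and 0.26 with positive controls only. Calls gave 139 lower and 182 higher, 136 and 167, and 115 and 173 in these 3. C1qa, which had no call, changed sign under them, at -0.22, -0.36 and -0.11, and on leaving out sample 2 of wild-type medium (-0.18) or sample 1 of knockout medium (-0.09), and Itgam, also without a call, stood at -0.14, -0.26 and -0.03. The cause was not tested. edgeR and DESeq2 were not run. Values near the negative controls limit what can be said of the 8 genes in knockout medium to a bound. No value in the 72 groups examined for a sample far from the other 3 met the test used (Dixon's test). That test looks for a single distant value and cannot flag samples that deviate in pairs, so little is read from this.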
